A study of Apis mellifera with 12 samples.

Results

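A set of 44 circular RNAs (circRNAs) was above every released and laying library in all 3 libraries of caged honey bee queen ovaries. They were chosen by their deposited levels, from 20244 circRNAs in the table, on 2 criteria. The 12 read counts of a circRNA had to sum to at least 60, which 2279 circRNAs met, and its lowest level in the caged libraries had to exceed its highest level in the 6 released and laying libraries. Levels are read counts scaled to a common library total of 1000000 circRNA reads (CPM).

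The study sequenced ovaries of Apis mellifera queens in 4 groups of 3 libraries, to look for circRNAs involved when the ovary becomes active and when laying is regulated. Caged queens were held in a cage inside their original colony for 7 days, which stopped egg laying, and were sampled at the end of day 7. Released queens had the same 7 days of caging, were freed, and were sampled on day 8, when they laid eggs again. Laying queens laid normally, and no treatment is listed for them or for virgin queens. No genotype, strain or age in days is given in the labels, which also do not say whether each library came from 1 queen, so p-values measure only the spread between these libraries. The tissue is given as ovaries, and this could not be set against marker genes, because the table holds circRNA identifiers and positions without gene names. Fewer cells of a type and less RNA per cell cannot be told apart in whole ovaries.

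A circRNA is a closed loop that forms by back-splicing, the joining of a splice donor to an acceptor that lies before it in the same transcript. Loops have no free ends, resist exonucleases such as RNase R, and often outlast the linear RNA of their gene. Several different loops can come from one stretch of genome and may share one of their splice sites. The queen ovary is a bundle of ovarioles, in which germ cells, nurse cells and follicle cells make eggs. Its activity rises after mating and drops when a laying queen is confined.

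The caged libraries held 170382 to 206697 circRNA reads, the released libraries 106396 to 163875, the laying libraries 89106 to 173922 and the virgin libraries 66487 to 201414. Among the 9 libraries that chose the set, laying replicate 2 was the only released or laying library with more reads than any caged one, so depth moved with the groups. Its part in the set was not tested. In the table no count of 1 occurs and the smallest count above 0 is 2, so a level listed at 0 stands for fewer than 2 reads or an unlisted circRNA.

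The 44 circRNAs are 1.93% of the 2279 with at least 60 reads. The mirror-image rule, with every caged library below all released and laying libraries, was met by 45 circRNAs or 1.97%. Ranks alone put 3 given libraries on top of 9 in 1 of 84 orders, a share of 1.19%, or 27.1 of 2279. That share takes the libraries as exchangeable and is given here without a test. The balance of both directions depended on the scaling. With TMM scaling of the totals (trimmed mean of M values, from edgeR) 71 circRNAs were above and 32 below, and with DESeq2 size factors 49 were above and 41 below. All 44 met the rule with TMM scaling and 42 with all 3 scalings. With a minimum of 240 reads, 23 were above and 31 below among 928 circRNAs.

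**Figure D1:**
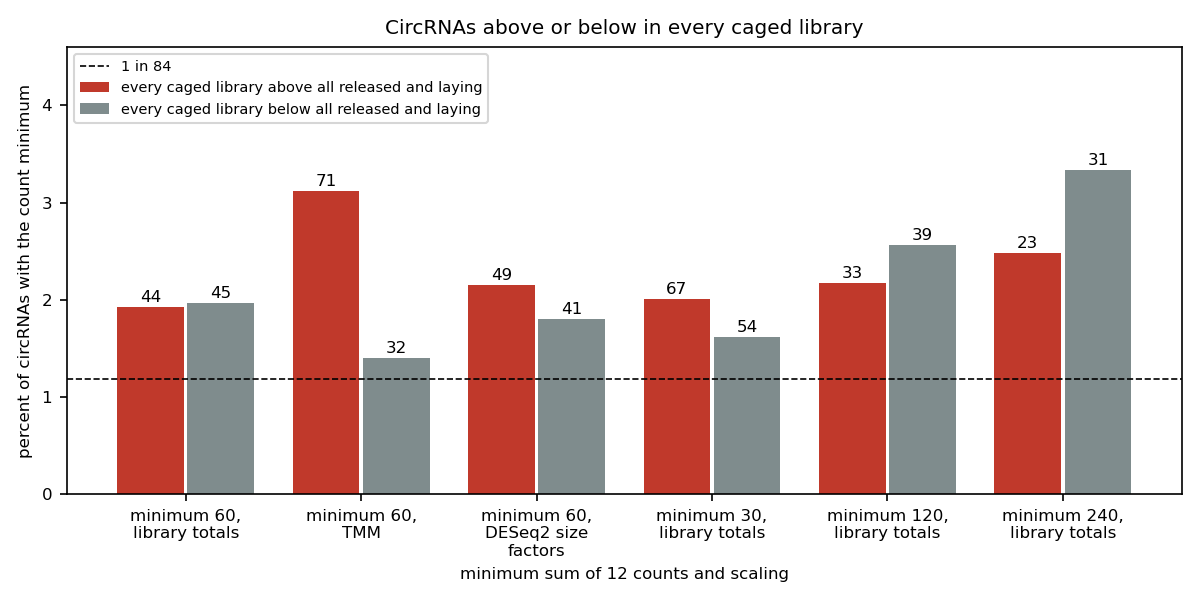
Percent of circRNAs with the count minimum (vertical axis) whose 3 caged libraries were all above (red bars) or all below (grey bars) the 6 released and laying libraries, by minimum sum of counts and scaling (horizontal axis), with the number of circRNAs on each bar. The dashed line is 1 in 84; with library totals and a minimum of 60 reads the bars stand for 44 and 45 circRNAs, and with TMM scaling for 71 and 32.

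The values below chose the set, so the height of the caged libraries over the released and laying ones is a description and carries no test. The ratio of the caged mean to the mean of the 6 released and laying libraries had a median of 1.82, and the middle of the set lay between 1.59 and 2.38. Over all 2279 circRNAs that ratio had a median of 0.999. The gap itself was narrow for most. The lowest caged level was 1.01 to 1.41 times the highest released or laying level, with a median of 1.08, and 27 of the 44 had a gap under 1.1 times. In edgeR's quasi-likelihood fit across 3215 circRNAs, caged against released and laying pooled, 0 circRNAs were called at an adjusted p under 0.05 (percent called 0.0), so none of the 44 was called. At an unadjusted p under 0.05, 279 circRNAs differed (8.68%) and 195 of them were higher in caged ovaries (6.07%), of which 26 belong to the 44. DESeq2 called 21 of 3215 circRNAs in this contrast, 11 higher and 10 lower in caged ovaries. Of the 11, 5 belong to the set, which was chosen on this same contrast.

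The most abundant circRNA of the set was ame_circ_0006346 (LG15, 5368191 to 5375154, minus strand). Its level was 20291, 12777 and 16489 CPM in caged libraries, 8901, 11625 and 12556 CPM in released libraries, 8321, 11275 and 4119 CPM in laying libraries and 5064, 1639 and 3383 CPM in virgin libraries. The lowest caged library stood just above the highest released one, and the virgin libraries were far below the caged ones, apart from overlapping the lowest laying library. Its fitted log2 fold change, caged over released and laying, was 0.87 (SE 0.32, n = 3 against 6). The set took 3.49% ± 0.329 of circRNA reads in caged, 2.20% ± 0.374 in released, 1.81% ± 0.504 in laying and 1.53% ± 0.323 in virgin libraries (SD, n = 3 each). Without ame_circ_0006346 these shares were 1.84% ± 0.0686 in caged, 1.1% ± 0.189 in released, 1.02% ± 0.15 in laying and 1.2% ± 0.152 in virgin libraries.

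The second in abundance, ame_circ_0001506 (LG10, 6229730 to 6246217, minus strand), had 5099, 5511 and 4454 CPM in caged libraries, 2406, 3246 and 4341 CPM in released libraries, 2744, 3013 and 1942 CPM in laying libraries and 1018, 1429 and 1368 CPM in virgin libraries. Released replicate 3 came close to the lowest caged library, and all virgin libraries were below all others. The circRNA ame_circ_0011552 (LG2, 2424581 to 2427031, minus strand) had 1398, 1344 and 1305 CPM in caged libraries, 1034, 873 and 1045 CPM in released libraries, 1049, 1121 and 931 CPM in laying libraries and 978, 782 and 890 CPM in virgin libraries. It had the most even caged values of these 3, and its caged mean was 1.34 times the mean of released and laying libraries.

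The circRNA ame_circ_0011894 (LG2, 6245003 to 6247036, plus strand) was at 1091 ± 190 CPM in caged, 569 ± 258 CPM in released, 672 ± 329 CPM in laying and 114 ± 81.8 CPM in virgin ovaries (SD, n = 3 each). Released replicate 2 and laying replicate 3 were its low libraries, at 305 and 292 CPM. No other circRNA with at least 60 reads overlapped it on its strand.

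**Figure D2:**
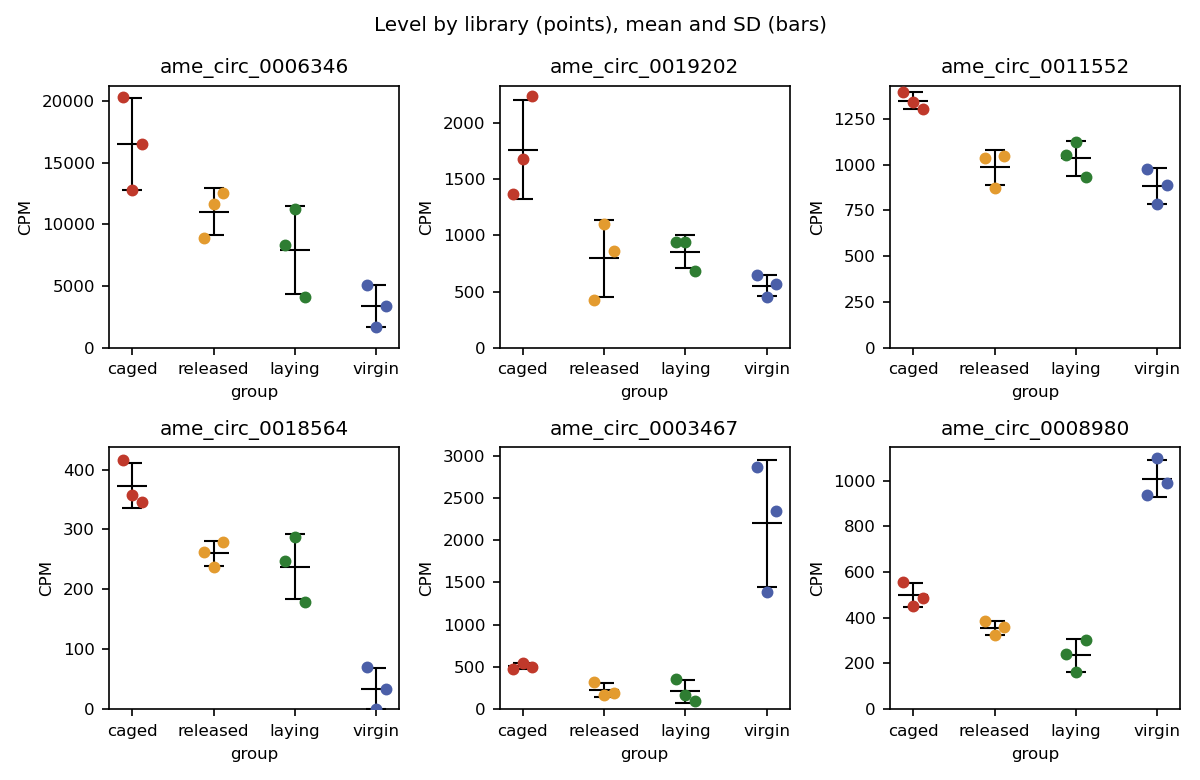
Level in CPM (vertical axes, from 0) of 6 circRNAs of the set in caged, released, laying and virgin libraries (horizontal axes); points are libraries, bars the mean and SD of 3. The caged points stand above all released and laying points in each panel, while the virgin points of ame_circ_0003467 and ame_circ_0008980 stand above the caged ones and those of the other panels stand below them.

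Several of the widest gaps belonged to circRNAs with few reads. The largest, 1.41 times, was that of ame_circ_0013019 (LG3, 6724149 to 6733783, minus strand), with 14, 9 and 11 reads in caged libraries, 4, 5 and 0 in released libraries, 5, 4 and 3 in laying libraries and 22, 6 and 6 in virgin libraries. Its caged level of 61.0 ± 7.56 CPM stood against 22.7 ± 19.98 CPM in released and 31.4 ± 7.51 CPM in laying ovaries. Next came ame_circ_0009993 (LG1, 28803966 to 28811411, minus strand; gap 1.40) at 74.1 ± 10.4 CPM in caged, 24.4 ± 10.1 CPM in released, 27.8 ± 24.5 CPM in laying and 13.2 ± 22.9 CPM in virgin ovaries. Its virgin value is 8 reads in virgin replicate 1, with the other virgin libraries at 0.

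The circRNA ame_circ_0006365 (LG15, 55895 to 62596, minus strand; gap 1.34) was at 60.4 ± 11.2 CPM in caged, 31.6 ± 4.02 CPM in released, 7.50 ± 13.0 CPM in laying and 65.8 ± 32.3 CPM in virgin ovaries. In laying ovaries it was listed in replicate 1 only, with 3 reads. The gap of ame_circ_0007698 (LG16, 6236875 to 6237411, plus strand) was 1.28 times, with caged levels of 58.1, 47.0 and 56.7 CPM and virgin levels of 49.6, 90.2 and 0 CPM. For ame_circ_0010586 (LG1, 9116949 to 9118991, plus strand) it was 1.25 times, with 56.4 ± 15.1 CPM in caged, 32.7 ± 7.20 CPM in released, 23.8 ± 13.0 CPM in laying and 43.5 ± 32.8 CPM in virgin ovaries. Among circRNAs with more reads, ame_circ_0017682 (LG7, 632323 to 643763, minus strand) had a gap of 1.23 times. It was at 262 ± 29.2 CPM in caged, 156 ± 62.2 CPM in released, 158 ± 8.44 CPM in laying and 230 ± 69.4 CPM in virgin ovaries.

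Of the 44, 11 had at least 1 released or laying library listed at 0, and none had all 6 at 0. Laying replicate 2 was the highest of these 6 libraries for 15 circRNAs, released replicate 3 for 11, released replicate 2 for 7, released replicate 1 for 5, laying replicate 1 for 4 and laying replicate 3, the shallowest of them, for 2. Just inside the threshold were ame_circ_0001638 (LG10, 7141902 to 7162924, minus strand), with a lowest caged level of 136 CPM against a highest released or laying level of 135 CPM, ame_circ_0005505 at 455 against 450 CPM, and ame_circ_0006792 (LG15, 8382224 to 8384261, minus strand) at 513 against 504 CPM. Just outside were ame_circ_0004977 (LG14, 1714098 to 1724085, plus strand) at 618 against 622 CPM, ame_circ_0008722 (LG1, 18160207 to 18167182, minus strand) at 125 against 126 CPM and ame_circ_0008922 (LG1, 20124236 to 20155359, minus strand) at 386 against 391 CPM. The edge of the set thus falls between circRNAs whose values differ by a few CPM.

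The comparison of levels in the rule left out the virgin libraries, but their reads counted toward the minimum of 60. In them the set split in opposite directions. For 23 of the 44 circRNAs (52.3%) the virgin mean was above the highest released or laying library, for 12 (27.3%) it was below the lowest, and for 9 (20.5%) it lay within their range. Among all 2279 circRNAs these shares were 29.3%, 24.2% and 46.5%. Where a released or laying library was listed at 0, as for 11 of the 44, a virgin mean could not be below the range. Of the 23, 7 reached 60 reads only through their virgin reads, namely ame_circ_0018189, ame_circ_0011924, ame_circ_0017876, ame_circ_0007698, ame_circ_0006365, ame_circ_0010586 and ame_circ_0013019, so they could enter the set only with virgin reads. With the minimum set on the 9 caged, released and laying libraries, an alternative chosen after seeing the data, 37 circRNAs were left, of which 16 (43.2%) had a virgin mean above the range, 12 (32.4%) below it and 9 (24.3%) within it. Among the 1882 circRNAs with that minimum the shares were 23.8%, 28.5% and 47.7%. With TMM scaling 27 of 71 (38%) were above and 24 (33.8%) below, against 23.6% and 28.3% of the 2279. All 3 virgin libraries were above all 6 released and laying libraries for 13 circRNAs (29.5%), against 18.3% of the 2279, and below all 6 for 7 (15.9%), against 15%. The rule used the released and laying values, so all these shares are given as a description. The mirror-image set of 45 had its virgin mean above the released and laying range for 14 (31.1%) and below it for 20 (44.4%).

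Against the caged libraries themselves, all 3 virgin libraries were above all caged ones for 8 of the 44 (18.2%, against 24% of the 2279), below all caged ones for 19 (43.2%, against 23.5%), and overlapped them for 17. In the edgeR fit of caged against virgin, 15 of the 44 (34.1%) were called higher in caged ovaries and 2 (4.55%) lower. Of the 2279 with at least 60 reads, 17.6% were called higher and 10.5% lower. Of all 3215 tested, which include sparser circRNAs, these shares were 13.4% and 7.96%. Nothing is read from these counts, since the rule chose high caged values. The split over all circRNAs depended on scaling, with 431 higher and 256 lower in caged ovaries with TMM and 330 higher and 352 lower with library totals.

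**Figure D3:**
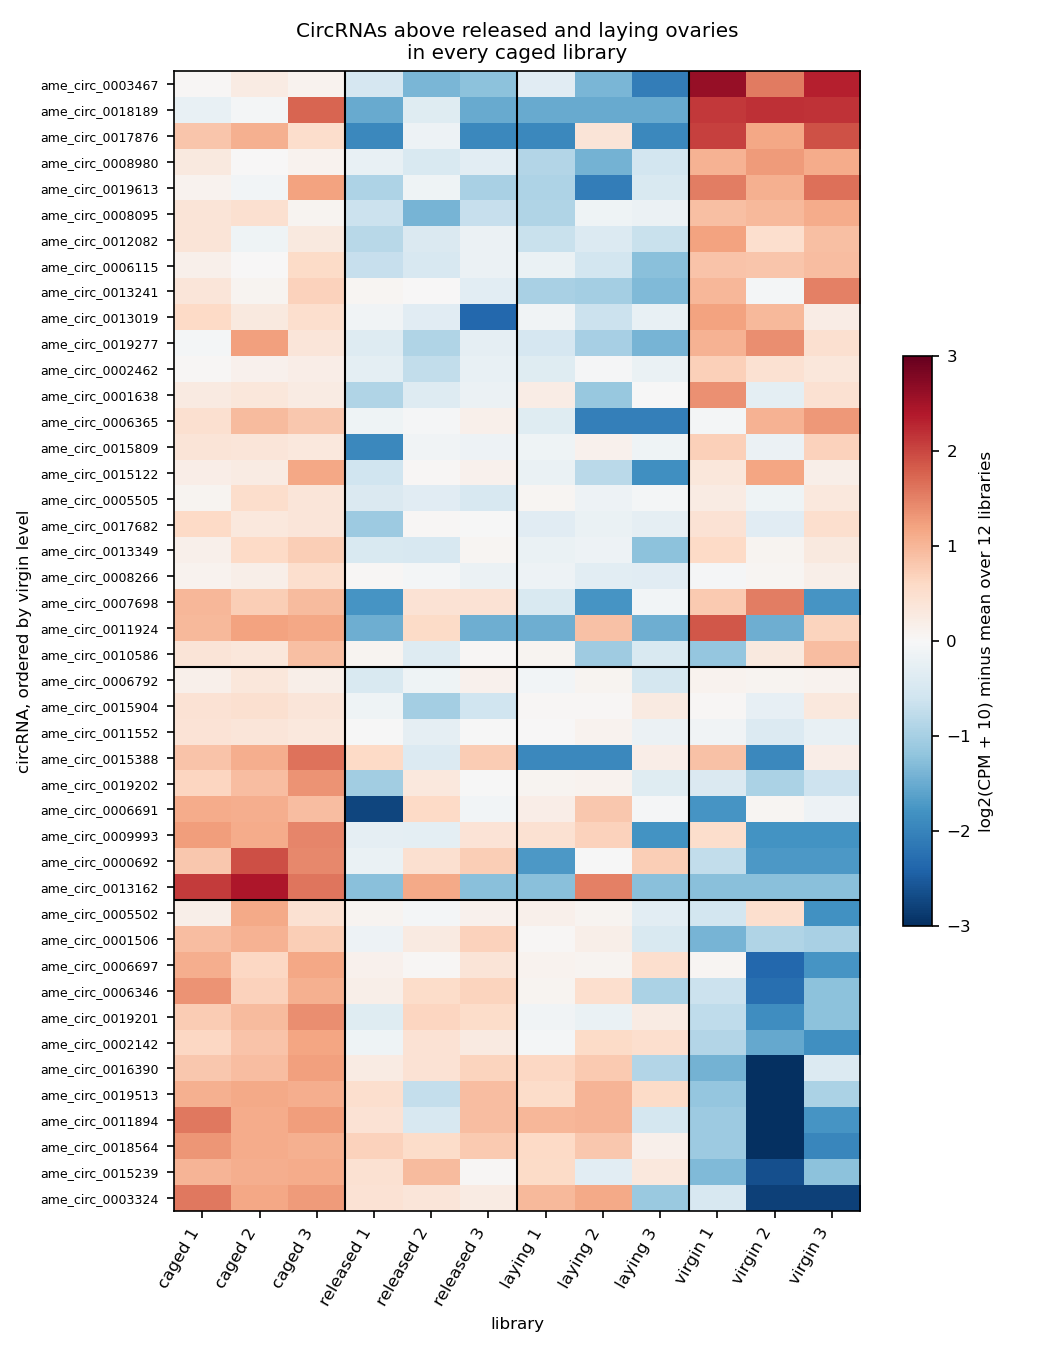
Level of the 44 circRNAs (rows) in the 12 libraries (columns), as log2(CPM + 10) minus the mean over 12 libraries, so that red is above and blue below a circRNA's own mean. Horizontal lines divide the 23 circRNAs whose virgin mean was above the highest released or laying library (top), the 9 within that range and the 12 below its lowest library (bottom).

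Among the 23 with a virgin mean above the released and laying range, the median ratio of virgin to caged mean was 1.33. The furthest was ame_circ_0003467 (LG12, 1332757 to 1336368, minus strand), with 474, 546 and 499 CPM in caged libraries, 320, 171 and 189 CPM in released libraries, 360, 172 and 101 CPM in laying libraries and 2870, 1384 and 2342 CPM in virgin libraries. The virgin libraries were all far above the caged ones, which were themselves above the rest, and the virgin mean was 4.34 times the caged mean. The circRNA ame_circ_0008980 (LG1, 20352735 to 20355014, minus strand) followed the same order, with 556, 452 and 488 CPM in caged libraries, 385, 323 and 360 CPM in released libraries, 240, 161 and 303 CPM in laying libraries and 938, 1098 and 991 CPM in virgin libraries. Its 4 groups did not overlap, and from virgin to caged to released to laying each group was lower. No other circRNA with at least 60 reads overlapped it.

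In ame_circ_0017876 (LG7, 9165754 to 9201003, plus strand) the caged libraries held 12, 12 and 8 reads, the released libraries 0, 4 and 0, the laying libraries 0, 7 and 0 and the virgin libraries 30, 5 and 16. At 58.0 ± 12.5 CPM its caged mean was below its virgin mean of 119 ± 39.05 CPM. The circRNA ame_circ_0018189 (LG8, 13416764 to 13422383, minus strand) had few reads outside virgin ovaries. It had 3, 3 and 15 reads in caged libraries, 0, 2 and 0 in released libraries, 0 in all laying libraries and 23, 8 and 14 in virgin libraries, so most of its caged level of 39.1 ± 39.9 CPM came from caged replicate 3. The circRNA ame_circ_0019613 (LG9, 3094010 to 3100099, plus strand) was at 121 ± 67.7 CPM in caged, 49.0 ± 21.0 CPM in released, 35.0 ± 22.4 CPM in laying and 237 ± 50.3 CPM in virgin ovaries, and caged replicate 3 was again its high caged library, at 199 CPM.

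Among the 12 with a virgin mean below the released and laying range, the median ratio of virgin to caged mean was 0.174. This group included the 2 most abundant circRNAs of the set. It had a median caged level of 383 CPM, where the group above the range had 170 CPM. By definition, the 11 circRNAs with a released or laying library at 0 could not be in the group below, whatever their virgin level. The 2 medians are therefore only a description. The circRNA ame_circ_0018564 (LG8, 3082363 to 3102764, plus strand) had 416, 358 and 346 CPM in caged libraries, 263, 238 and 279 CPM in released libraries, 247, 287 and 180 CPM in laying libraries and 69.5, 0 and 33.6 CPM in virgin libraries. All virgin libraries were below all others, and the caged mean was 10.9 times the virgin mean. The circRNA ame_circ_0003324 (LG12, 10820771 to 10822751, minus strand) was at 168 ± 27.0 CPM in caged, 78.7 ± 6.29 CPM in released and 97.9 ± 65.8 CPM in laying ovaries, and in virgin ovaries it was listed in replicate 1 only, with 8 reads. The circRNA ame_circ_0015239 (LG5, 5235731 to 5238877, minus strand) was at 121 ± 4.65 CPM in caged, 79.7 ± 28.2 CPM in released, 63.3 ± 21.4 CPM in laying and 10.6 ± 9.20 CPM in virgin ovaries.

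A pair with few reads had virgin libraries at or near 0 and at least 1 laying library at 0. Both were therefore counted within the released and laying range. The circRNA ame_circ_0013162 (LG3, 8923653 to 8960255, minus strand) had 19, 20 and 11 reads in caged libraries, 0, 7 and 0 in released libraries, 0, 10 and 0 in laying libraries and 0 in all virgin libraries. In the released and laying groups its reads were in the deepest library of each. The circRNA ame_circ_0000692 (LG10, 10477893 to 10481463, plus strand) had 10, 20 and 14 reads in caged libraries, 2, 6 and 5 in released libraries, 0, 4 and 4 in laying libraries and 2, 0 and 0 in virgin libraries. Virgin replicate 2 was the shallowest library of the series, and 10 of the 44 circRNAs were listed at 0 in it, against 1 in virgin replicate 1 and 5 in virgin replicate 3.

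**Figure D4:**
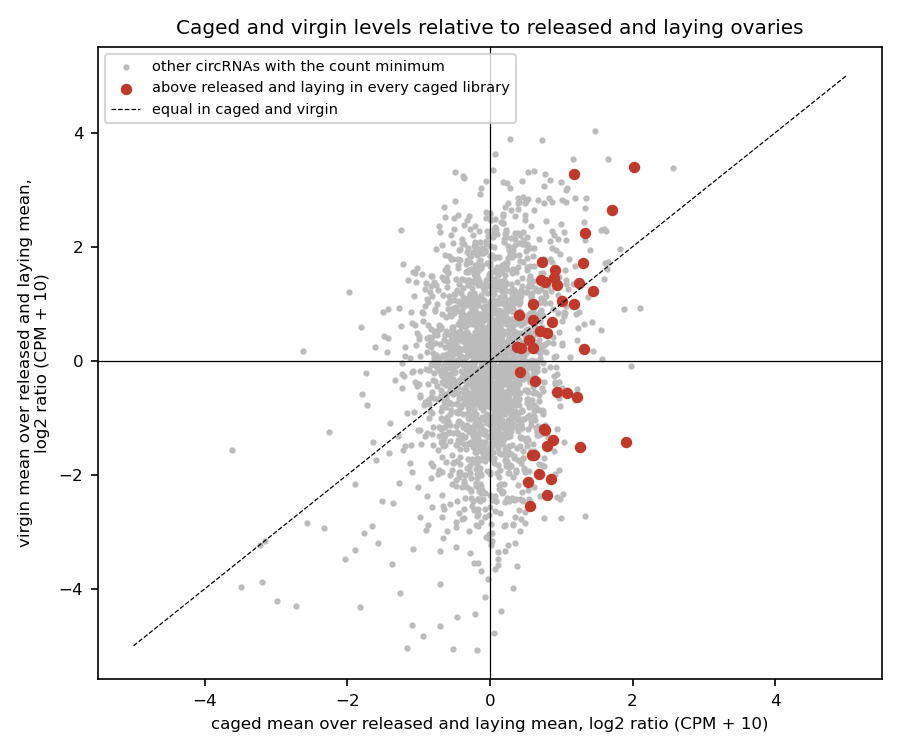
Log2 ratio of the caged mean (horizontal axis) and of the virgin mean (vertical axis) to the mean of released and laying libraries, with 10 CPM added to each mean, for the 44 circRNAs (red) and the other circRNAs with at least 60 reads (grey). The red points lie right of 0 by choice and spread both above and below 0 in virgin ovaries, with the dashed line marking equal caged and virgin levels.

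The 16 circRNAs of the set not described singly had caged means from 49.1 CPM (ame_circ_0011924) to 451 CPM (ame_circ_0002142). Of these, ame_circ_0019277 (LG8, 9235370 to 9237533, minus strand) was at 388 ± 187 CPM in caged, 174 ± 41.2 CPM in released, 128 ± 41.7 CPM in laying and 519 ± 162 CPM in virgin ovaries. The circRNA ame_circ_0006115 (LG15, 3022811 to 3029574, minus strand) was at 210 ± 44.9 CPM in caged, 126 ± 25.1 CPM in released, 111 ± 41.5 CPM in laying and 325 ± 10.1 CPM in virgin ovaries. Both were chosen for mention after their values were seen, as examples with virgin levels above the released and laying range.

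Released and laying ovaries were treated alike by the rule, so it did not fix which of them was higher. It did cap both below the lowest caged level, which limits how far they can differ within the set. The difference was tested over all circRNAs, and the counts, shares and intervals for the set are a description. In edgeR's fit 0 of 3215 circRNAs were called (percent called 0.0), and 232 had an unadjusted p under 0.05 (7.22%), of which 133 were higher in released ovaries (4.14%). DESeq2 made 6 calls, none of them in the set. At an unadjusted p under 0.05 the set held 2, or 4.55%. Both were higher in released ovaries. The circRNA ame_circ_0013241, named after its values were seen (LG3, 9907051 to 9920493, plus strand) was at 120 ± 17.9 CPM in released and 54.1 ± 8.09 CPM in laying ovaries (log2 fold change 1.08, edgeR adjusted p = 0.68), and ame_circ_0008980 was at 356 ± 31.2 CPM in released and 235 ± 71.2 CPM in laying ovaries (log2 fold change 0.60, edgeR adjusted p = 0.681). The released mean exceeded the laying mean for 24 of the 44 (54.5%), against 54.8% of the 2279. The 95% interval of the released to laying ratio reached no further than 2-fold up or down for 13 of the 44 (29.5%). For 30 (68.2%) it reached no further than 4-fold, so a larger difference could not be set aside for the others. Among the 2279 these shares were 18.0% and 64.6%.

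The 44 circRNAs lay on 15 of the chromosomes, named linkage groups (LG) in the table, with 6 on LG15, 5 each on LG1 and LG8 and none on LG13, where 127 of the 2279 lay. Their spans between back-spliced ends were 448 to 54483 nt, with a median of 2454 nt (quartiles 1326 and 7992 nt), against a median of 1936 nt for the 2279 (quartiles 647 and 6575 nt) and 1380 nt for the 45 of the mirror-image set. Spans under 500 nt made up 2 of the 44 (4.55%), both from the same locus on LG14, against 19.2% of the 2279. The minus strand held 28 (63.6%), against 49.5%. These features are given as descriptions.

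When overlapping spans on one strand were joined over the 2279 circRNAs, they formed 1301 loci, and the 44 fell into 41 of them. Such a locus is defined by overlap alone and can hold more or less than a gene. Only 10 of the 44 (22.7%) were alone in their locus, against 39.9% of the 2279. In 3 loci the set held a pair each, and members of a pair overlap, so they can share sequence and were not taken as independent.

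The pair on LG8 shares its back-splice position at 8546045 (minus strand). The longer loop, ame_circ_0019202, ends at 8600528 and had 1369, 1679 and 2241 CPM in caged libraries, 423, 1098 and 865 CPM in released libraries, 937, 943 and 685 CPM in laying libraries and 645, 451 and 562 CPM in virgin libraries. The shorter, ame_circ_0019201, ends at 8568048 and had 789, 904 and 1237 CPM in caged libraries, 357, 726 and 685 CPM in released libraries, 427, 402 and 550 CPM in laying libraries and 268, 120 and 193 CPM in virgin libraries. Caged replicate 3 was the highest and released replicate 1 the lowest of the 9 libraries for the first, and released replicate 1 was also the lowest for the second. The other 6 circRNAs of this locus, none of which met the rule, summed to 44480 CPM in caged, 31370 CPM in released, 30610 CPM in laying and 15090 CPM in virgin ovaries. The pair made up 5.84% ± 0.249 of the locus in caged, 4.27% ± 1.85 in released, 4.16% ± 0.534 in laying and 4.75% ± 1.28 in virgin ovaries (SD, n = 3 each), ranges that overlapped.

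The pair on LG14 shares its back-splice position at 7258124 (plus strand). Its longer loop, ame_circ_0005505, ends at 7258620 and was at 546 ± 84.8 CPM in caged, 323 ± 17.9 CPM in released, 417 ± 32.3 CPM in laying and 482 ± 79.1 CPM in virgin ovaries. The shorter, ame_circ_0005502, ends at 7258572 and was at 185 ± 70.3 CPM in caged, 119 ± 8.49 CPM in released, 113 ± 20.1 CPM in laying and 88.4 ± 71.2 CPM in virgin ovaries. The virgin mean of ame_circ_0005505 was above the released and laying range. That of ame_circ_0005502 was just below its lowest released or laying library, at 89.8 CPM. The virgin libraries of ame_circ_0005502 held 15, 11 and 3 reads, at 74.5, 165 and 25.2 CPM. They thus lay on both sides of its released and laying range, which reached up to 127 CPM.

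The pair on LG15 is nested on the plus strand. The outer loop, ame_circ_0006691 (7976493 to 7995115), was at 130 ± 9.28 CPM in caged, 48.5 ± 46.0 CPM in released, 77.6 ± 28.0 CPM in laying and 40.2 ± 26.6 CPM in virgin ovaries, and released replicate 1 was listed at 0. The inner loop, ame_circ_0006697 (7986946 to 7987880), was at 393 ± 76.9 CPM in caged, 226 ± 31.2 CPM in released, 232 ± 41.7 CPM in laying and 94.7 ± 94.8 CPM in virgin ovaries. Together they made up 16.1% ± 0.891 of their locus of 6 circRNAs in caged ovaries, with every caged library above every released library (mean 11.7% ± 3.13) and every laying library (10.2% ± 1.22).

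In 31 loci the set lay beside other circRNAs with at least 60 reads that did not meet the rule. The set's share of a locus has in its numerator the levels that the rule required to be high in caged libraries, so shares are given as a description only. That share was higher in every caged library than in any released or laying library in 8 of these loci. At the locus of ame_circ_0001506, from 6222009 to 6256031 on LG10, that share was 39.2% ± 1.69 in caged, 28.7% ± 7.06 in released and 23.0% ± 4.41 in laying ovaries, while the other 8 circRNAs of the locus summed to 7785 CPM in caged, 8203 CPM in released and 8549 CPM in laying ovaries. The rest of the locus was thus not highest in caged ovaries there. At the locus of ame_circ_0006346 (LG15, 5338694 to 5375154) the other 5 circRNAs summed to 1969 CPM in caged, 1567 CPM in released and 1298 CPM in laying ovaries. In all, the rest of the locus had its highest mean of the 3 groups in caged ovaries in 17 of 31 loci (54.8%). Among loci of 2 or more circRNAs that held none of the set, the caged mean was highest in 110 of 361 (30.5%). These measures are unlike, because the first leaves out the set's own circRNAs, often leaving a single one, and the second takes whole loci. The 31 loci were picked through loops chosen on the same libraries, so these shares are a description and carry no test.

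A further 60 circRNAs with at least 60 reads shared a back-splice position with one of the 44 but did not meet the rule. These 60 were picked through loops chosen on the same libraries, and some share a position with the same loop. Their levels are therefore a description and carry no test. The caged mean exceeded both the released and the laying mean in 38 of the 60 (63.3%). Among all 2235 circRNAs with at least 60 reads outside the set, which include these 60, that share was 33.4%. One, named after its values were seen, was ame_circ_0006114, which shares the position 3022811 with ame_circ_0006115 and was at 532 ± 303 CPM in caged, 224 ± 35.1 CPM in released, 102 ± 54.8 CPM in laying and 519 ± 138 CPM in virgin ovaries. Its lowest caged library, at 218 CPM, kept it out of the set. Overlapping loops can share exons, and how reads were assigned to such loops is not given in the sources at hand.

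The levels of circRNAs with fewer than 60 reads were not compared by the rule, and 261 of them overlapped one of the 44 on the same strand, beside 39 of the 44. Their summed level was 2342, 1620 and 2190 CPM in caged libraries, 1288, 1654 and 1288 CPM in released libraries, 1259, 1449 and 404 CPM in laying libraries and 2194, 1354 and 1687 CPM in virgin libraries. Caged replicates 1 and 3 were the highest of the 9, while caged replicate 2 stood just below released replicate 2, and laying replicate 3 was low, with 36 reads. The caged mean was 1.68 times that of the released and laying libraries, a difference of 827 CPM. Without caged replicate 1 the difference was 682 CPM, and without caged replicate 3 it was 757 CPM. These circRNAs were picked by overlap with loops chosen on the same libraries, with which they can share exons and reads, so the difference is a description and carries no test. All 17965 circRNAs with fewer than 60 reads summed to 67080 ± 1790 CPM in caged, 66100 ± 6070 CPM in released, 59300 ± 5200 CPM in laying and 105900 ± 4460 CPM in virgin ovaries (SD, n = 3 each), a caged mean 1.07 times that of released and laying libraries.

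**Figure D5:**
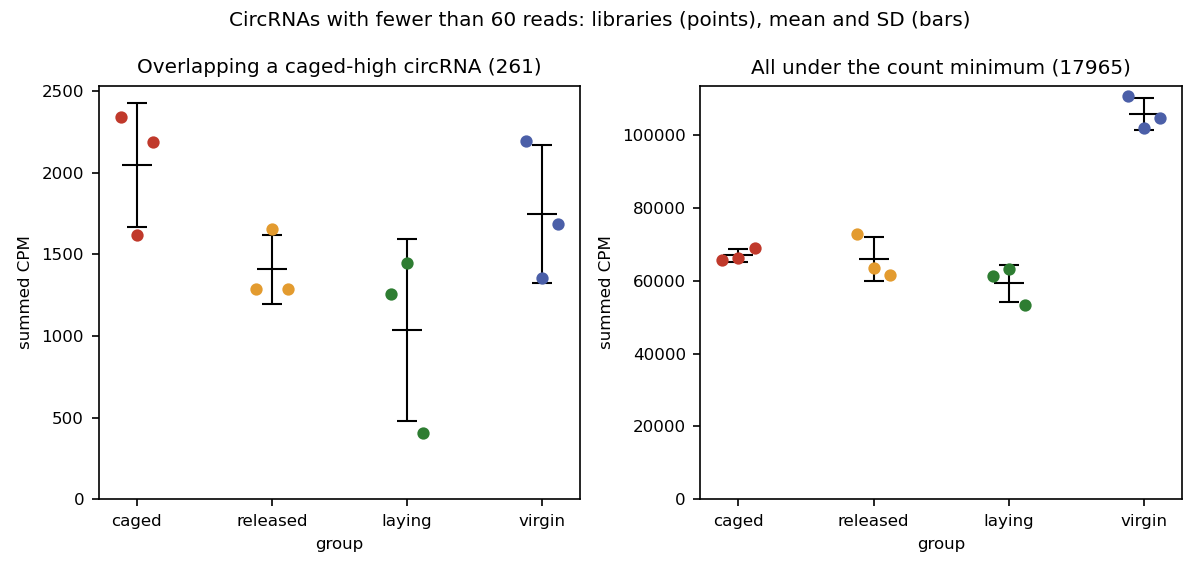
Summed CPM (vertical axes, from 0) of circRNAs with fewer than 60 reads in caged, released, laying and virgin libraries (horizontal axes): 261 that overlap one of the 44 circRNAs (left) and all 17965 (right); points are libraries, bars the mean and SD of 3. On the left caged replicates 1 and 3, at 2342 and 2190 CPM, stand above all released and laying libraries; on the right the caged and released libraries overlap and the virgin libraries are highest.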

How the data were processed

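The read counts were deposited by the authors as whole numbers per circRNA and library, with positions in Amel_4.5 per the labels' protocols; the circRNA caller, and whether starts count from 0 or 1, are not given in the sources at hand. Libraries were made from RNA depleted of ribosomal RNA and digested with RNase R, per the labels' protocols, and the submitters' processing notes list Bowtie. The deposited columns headed TPM hold CPM: each equals the count divided by the library's total times 1000000, to within 4.989e-06. The gene table at hand is of another assembly, so no circRNA was matched to a gene and no sequence is shown.

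The rule was applied to the deposited CPM. Counts were tested in one fit of all 12 libraries with edgeR 4.0.16 in R 4.3.3 (TMM, quasi-likelihood test, filterByExpr at minimum count 5 and total 15, Benjamini-Hochberg adjustment over 3215 circRNAs), checked on simulated data, with DESeq2 1.42.0 as an alternative. SE is the log2 fold change divided by the square root of F. A permutation test planned for the summed level of overlapping circRNAs is not reported, because these were picked through the set. Depth per library, given with the groups, limits precision. The 44 circRNAs and the tests were chosen with earlier results of these data known. CircRNAs were named by rule: the 10 with the largest gap, the 8 most abundant, the 5 highest and 5 lowest in virgin to caged ratio, those called, those sharing a locus, and 3 on each side of the threshold. Replicates differed by more than sampling noise (lowest chi-square per degree of freedom 4.02), so none was treated as a duplicate. Other scalings, filters, minimum sums and left-out libraries were tried.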

Additional observations from a re-analysis of the deposited data

How the results depend on the processing

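The number of circRNAs above in every caged library was 44, and became 71 with TMM scaling. It was 67 with a minimum sum of 30 and 23 with a minimum sum of 240, which change how many circRNAs are eligible. TMM keeps the same circRNAs eligible and changes only the totals by which counts are divided. Which libraries moved the number was not tested. Leaving out 1 library, which relaxes the rule, gave 56 to 111 above and 57 to 111 below. The share with a virgin mean above the released and laying range was 52.3%, and was 38% with TMM scaling, 43.2% with the minimum set on 9 libraries (chosen after seeing the data) and 47.7% to 51.0% with DESeq2 size factors, a minimum sum of 120 or 1 virgin library left out. Calls for released against laying numbered 0, and became 6 with DESeq2, 11 without a filter and 1 with the replicate block, and 0 to 3 without 1 library. Calls for caged against released and laying pooled numbered 0, and became 21 with DESeq2, 23 without a filter and 0 to 5 without 1 library (5 without released replicate 2 or 3); the replicate block gave 0. For caged against virgin the count was 687, 596 with the replicate block and 456 to 573 without 1 library. The causes were not tested. Same-numbered libraries correlated at -0.201 to 0.119 in their deviations from group means (18 pairs), so numbers were not taken to pair them. The summed level of overlapping circRNAs differed by 663 to 1042 CPM without 1 library and carries no test. For caged against released and laying pooled, 490 fold changes of named circRNAs were fitted under alternatives. Of these, 481 kept direction and side of the threshold, 9 became called and 0 reversed. The main fit called 0, so a kept side is mostly a circRNA left uncalled. Of the 31 named circRNAs, 28 belong to the set chosen on this contrast, so their direction was largely fixed by the rule and is a description. Depth limits the sparse circRNAs most: 11 of the 44 had a released or laying library listed at 0.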
